A study of Mus musculus with 52 samples.

Results

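The genes described here encode enzymes that write or erase methyl groups on histones and ATP-driven machines that move nucleosomes, measured in the frontal cortex of mice with amyloid pathology. They were chosen by name alone: every gene of the count table whose symbol begins with Kmt2, Kdm, Setd, Smarc, or Chd and a digit, without the sex-linked genes Kdm5c, Kdm5d and Kdm6a. This gave 56 of 15692 genes, of which 5 belong to the Kmt2 family, 11 to Setd, 15 to Kdm, 14 to Smarc and 11 to Chd. All 56 passed the filter on low counts, which kept 15195 genes.

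Histone methyltransferases of the Kmt2 and Setd families place methyl marks on histone lysines, among them the marks of active promoters, enhancers and gene bodies, and the Kdm demethylases take such marks off. Most Smarc and Chd proteins are ATPases or other subunits of machines that use ATP to slide, eject or exchange nucleosomes. The Smarc proteins act chiefly as parts of BAF and ISWI complexes, and several Chd proteins in NuRD. In the brain many of these genes are known as causes of intellectual disability or autism when 1 copy is lost, which makes their dosage in neurons of interest.

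RNA came from the frontal cortex of 52 mice, 1 library per mouse. All carried the APP/PS1ΔE9 transgenes, and human APOE3 or APOE4 replaced mouse Apoe on both alleles, giving the lines APP/E3 and APP/E4. Mice without the transgenes or with mouse Apoe are not among these groups, and the labels do not name the promoter of the transgenes. Both sexes of each line ate normal diet (ND) or, for 3 months from an average age of 3.5 months, a high-fat Western diet (HFD) in which fat supplied 40% of calories. The labels also place behavioural testing at a mean age of 14.7 months and do not say how these ages relate. Among APP/E3 males, 6 ate ND and 6 HFD, and among APP/E3 females 7 and 8. Among APP/E4 males, 6 ate ND and 5 HFD, and among APP/E4 females 7 and 7. Any p-value measures the spread between these mice.

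Libraries held 5.34 to 13.1 M counts except for 1 APP/E3 ND male with 39.4 M. In 11 female libraries the citrate synthase-like gene Csl lay between 0.0944 and 1.13 CPM (counts scaled to a common library total), against 11.3 to 18 CPM in the other 41. These low-Csl libraries made up 5 of the 8 HFD females and 2 of the 7 ND females of APP/E3, and 2 of 7 on either diet in APP/E4. The 12 excitatory neuron markers summed to between 4440 and 8720 CPM per library, and none of them was at 0 in any. Striatal markers summed to between 181 and 2540 CPM, olfactory tissue markers to between 24.8 and 1370 CPM, and choroid plexus markers to between 201 and 3830 CPM, so these markers of neighbouring tissue varied widely between mice. Levels below are CPM scaled by TMM, a library-size correction. A gene is called when the adjusted p of edgeR's quasi-likelihood test is under 0.05.

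Many of these genes start in CpG-rich promoters. The 250 bases upstream of the RefSeq start (GRCm38.p6) were found for 41 of the 56 genes and held a median of 22 CpG dinucleotides, against 16 over 11655 tested genes. The GC box GGGCGG, searched on both strands, occurred in 29 of 41 (70.7%) against 62.5% of all. The CCAAT box, by contrast, was as frequent as elsewhere, at 39% against 40.1%, and TATAAA occurred in 1 of the 41 (2.44%) against 8.12%. A match describes letters only. The 4 upstream sequences printed here belong to the genes that the results turn on, namely the 3 with the lowest p in the diet comparison averaged over all mice and Setd2, the single gene called between the lines. They read 5′ to 3′ on the gene's strand, with GC boxes of either orientation in capitals.
Kmt2a, chr9:44881290-44881539, minus strand: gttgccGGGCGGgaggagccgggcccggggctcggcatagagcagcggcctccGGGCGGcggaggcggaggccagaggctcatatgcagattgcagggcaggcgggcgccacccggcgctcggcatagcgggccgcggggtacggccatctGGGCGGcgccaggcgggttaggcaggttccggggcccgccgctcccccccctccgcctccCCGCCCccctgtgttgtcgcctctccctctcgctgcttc
Kdm7a, chr6:39206774-39207023, minus strand: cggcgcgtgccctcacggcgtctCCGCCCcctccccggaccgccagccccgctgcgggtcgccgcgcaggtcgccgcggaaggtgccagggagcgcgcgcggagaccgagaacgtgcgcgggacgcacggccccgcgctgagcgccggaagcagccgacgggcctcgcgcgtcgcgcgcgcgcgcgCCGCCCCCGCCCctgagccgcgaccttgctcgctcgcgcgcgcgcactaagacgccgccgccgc
Kmt2c, chr5:25498784-25499033, minus strand: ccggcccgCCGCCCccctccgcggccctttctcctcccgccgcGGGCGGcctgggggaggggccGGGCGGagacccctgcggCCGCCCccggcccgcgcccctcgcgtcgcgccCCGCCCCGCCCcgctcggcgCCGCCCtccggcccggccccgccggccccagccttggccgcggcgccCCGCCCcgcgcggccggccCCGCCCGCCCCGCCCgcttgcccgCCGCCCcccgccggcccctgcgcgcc
Setd2, chr9:110532347-110532596, plus strand: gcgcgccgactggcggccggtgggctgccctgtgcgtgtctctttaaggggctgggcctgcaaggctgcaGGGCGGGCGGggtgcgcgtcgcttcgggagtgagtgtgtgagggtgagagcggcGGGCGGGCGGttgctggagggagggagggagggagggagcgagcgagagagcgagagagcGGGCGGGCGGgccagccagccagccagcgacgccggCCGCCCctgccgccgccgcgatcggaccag
These windows held 29 CpG and 4 GC boxes for Kmt2a, 56 and 3 for Kdm7a, 48 and 12 for Kmt2c, and 31 and 7 for Setd2. Kdm7a had the highest CpG count of any of the 11655 genes with such a window, tied or alone.

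The genes differed widely in level. Per kb of exon, the NuRD remodeler Chd3 was the most abundant at 90.9 CPM per kb, followed by the BAF core subunits Smarcc2 at 60.7 and Smarcd1 at 51.6. The neuron-enriched remodeler Chd5 followed at 37.9 CPM per kb, then the BAF ATPase Smarca4 at 28.8, Chd4 at 27.4 and the lysine methyltransferase Setd7 at 25. Among the writers of the active H3K4 mark, Kmt2a lay at 10.8 and Setd1a at 9.61 CPM per kb, while Kmt2c and Kmt2d lay at 4.81 and 4.7. Their relative Kmt2e lay at 11.5 CPM per kb. The eraser Kdm1a, which removes that mark in its lower methylation states, stood at 13 and Kdm4b at 15.7 CPM per kb. At the bottom of the order were Chd7 at 1.07, Setd4 at 0.879 and Kdm4d at 0.481 CPM per kb.

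Unscaled for length, the highest gene of each family was Kmt2a at 180 CPM, Setd7 at 270, Kdm2a at 108, Smarca2 at 341 and Chd3 at 768. The lowest were Kmt2b at 67.1, Setd4 at 4.73, Kdm4d at 1.38, Smarca5-ps at 4.07 and Chd1l at 9.52 CPM. Kdm4d fell to 3 counts in its lowest library, so its values carry the largest counting error of the 56. Values of 2 entries are uncertain: Chd3os lies antisense to Chd3 and the strand setting of the counting is not given, and Smarca5-ps is a pseudogene copy of Smarca5. Neither had a length in the annotation used, so 54 genes enter the length values.

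**Figure D1:**
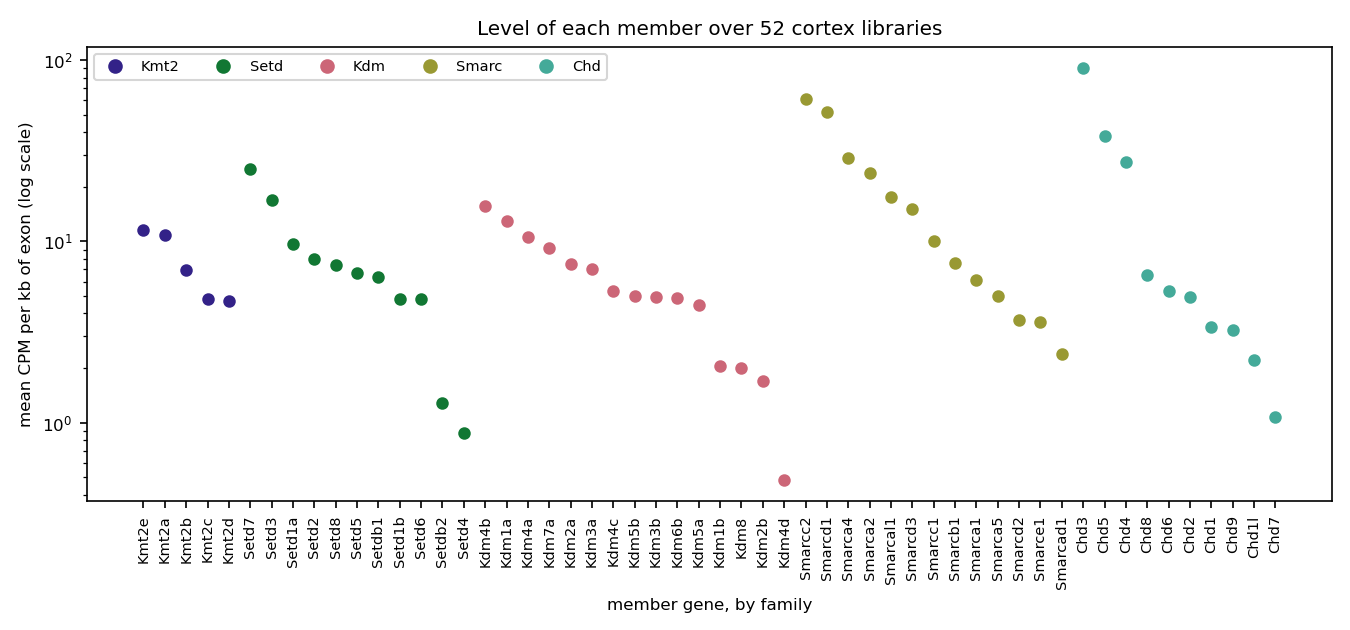
Mean level of 54 member genes over the 52 libraries, in CPM per kb of exon on a log axis, ordered within each family by level and coloured by family. Chd3 stands highest at 90.9 and Kdm4d lowest at 0.481 CPM per kb.

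The families also differed in how steady their genes were within a group. The standard deviation of log2 CPM within groups was 0.064 for Smarcc2, 0.077 for Smarca4 and 0.085 for Kdm1a, the 3 steadiest. It reached 0.43 for Kdm4d, 0.35 for the H3K27 demethylase Kdm6b and 0.29 for Chd7. By family the median was 0.22 for Kmt2, 0.17 for Setd and 0.15 for Kdm, Smarc and Chd alike. Within the Kmt2 family, Kmt2a, Kmt2c, Kmt2d and Kmt2e lay between 0.165 and 0.23, and Kmt2b, also a promoter H3K4 writer, at 0.11.

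On the Western diet the members' median lay above 0 in APP/E3 mice of both sexes and near 0 in APP/E4 mice. The median log2 difference of HFD against ND over the 56 genes was 0.092 in APP/E3 males, with 44 of 56 above 0, and 0.088 in APP/E3 females, with 43 above 0. It was 0.022 in APP/E4 males, with 36 above 0, and -0.014 in APP/E4 females, with 25 above 0. The APP/E4 male value moved with single mice: it was -0.0044 without ND male 6 and 0.05 without HFD male 3. With a term for whether the title carries a sex letter it was 0.053. Over all 15195 genes the medians were -0.012, -0.0040, -0.0023 and 0.0051 in the same order. The spread of single genes was much wider, from -0.18 to 0.38 in APP/E3 males and from -0.20 to 0.26 in APP/E4 females.

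No member was called in any diet comparison by edgeR's quasi-likelihood test, by DESeq2 or by limma voom. The background in edgeR was as low: 0% of all genes were called in APP/E3 males, 0.0263% in APP/E3 females, and 0% in APP/E4 males, in APP/E4 females and in the average of the 4 comparisons. DESeq2 called 6, 8, 1, 0 and 2 genes in the same order, and limma voom 0 in each. At an unadjusted p under 0.05 in edgeR, 12 members were higher on HFD in APP/E3 males, or 21.4%, against 6.21% of all genes, and 10 in APP/E3 females, or 17.9%, against 2.38%. In APP/E4 males it was 1 member (1.79%) against 1.75% of all genes, and in APP/E4 females none against 4.8%. In the averaged comparison 11 were higher, or 19.6%, against 4.4%. Lower on HFD at the same threshold were 0 members in APP/E3 males (7.38% of all genes) and 0 in APP/E3 females (2.32%). Lower in the APP/E4 mice were 2 in males, against 1.9% of all genes, and 1 in females, against 3.1%, and the average gave 1, against 4.8%. These genes vary together between libraries, so the shares describe the members and carry no test of the list.

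**Figure D2:**
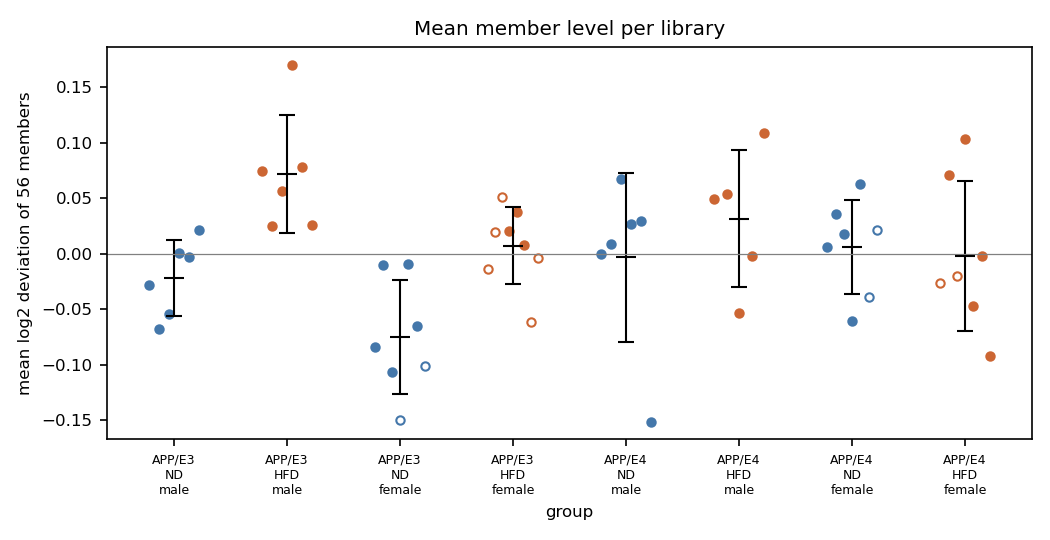
Mean log2 deviation of the 56 members from each gene's mean over all libraries, 1 point per library in 8 groups, with group mean and SD in black. Blue is ND, orange HFD, and hollow points are low-Csl libraries. The APP/E3 HFD groups centre above the APP/E3 ND groups of the same sex, and the APP/E4 diet groups overlap.

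The mean deviation of the 56 genes per library shows how far the groups separate. In APP/E3 males it ran from -0.068 over a median of -0.016 to 0.021 on ND, and from 0.025 over 0.066 to 0.17 on HFD, so these groups did not overlap. In APP/E3 females it ran from -0.15 over -0.084 to -0.0096 on ND and from -0.061 over 0.014 to 0.051 on HFD, with partial overlap. The APP/E4 ND males ran from -0.15 over 0.018 to 0.068, and the 5 HFD males stood at -0.053, -0.0021, 0.050, 0.054 and 0.11. APP/E4 ND females ran from -0.060 over 0.017 to 0.063 and HFD females from -0.092 over -0.020 to 0.10. The APP/E4 diet groups thus overlapped in both sexes.

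**Figure D3:**
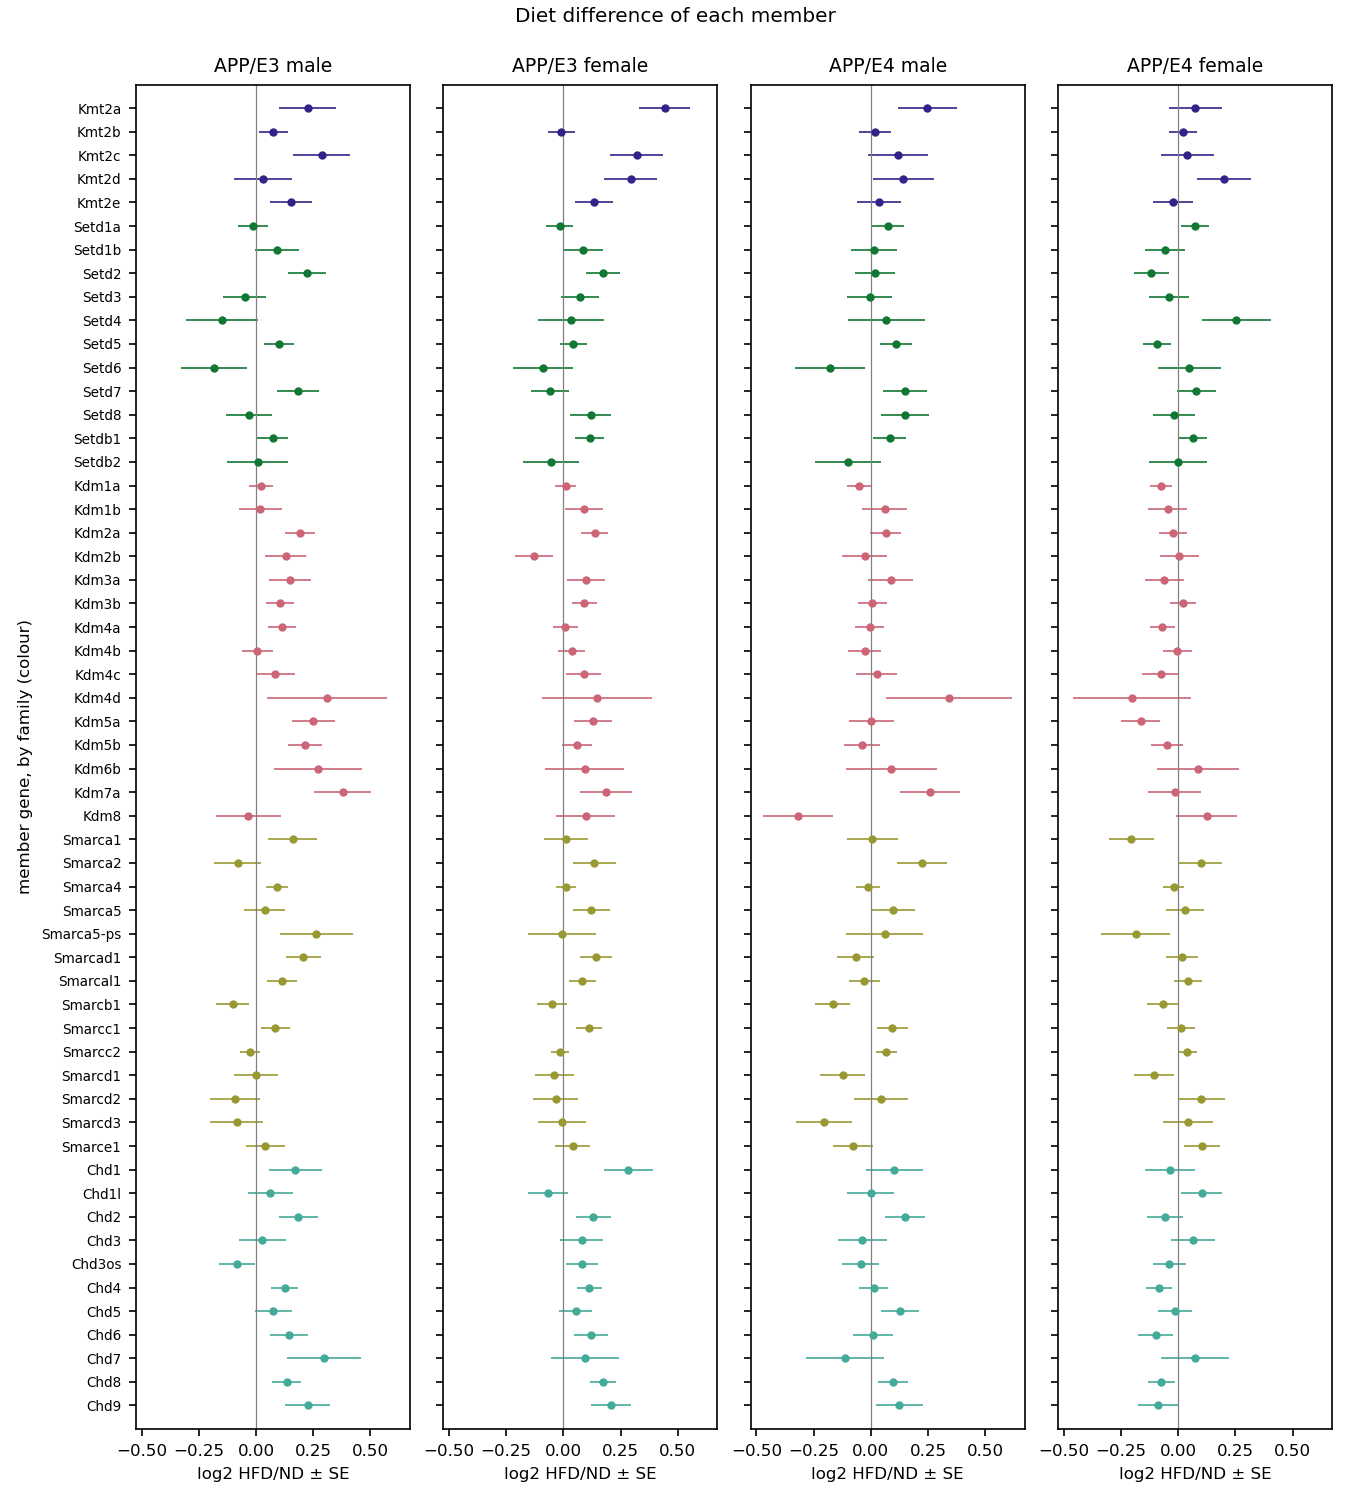
Log2 difference of HFD against ND with its standard error for each of the 56 members, coloured by family, in the 4 combinations of line and sex. Most Kmt2, Kdm and Chd genes lie right of 0 in both APP/E3 panels, and points scatter around 0 in APP/E4 females.

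The Kmt2 family had the highest median diet difference of the 5 families in each of the 4 comparisons when all libraries were fitted. It was 0.15 in APP/E3 males, 0.29 in APP/E3 females, 0.12 in APP/E4 males and 0.039 in APP/E4 females, with 5, 4, 5 and 4 of 5 genes above 0. This order was not stable: without ND male 6 the APP/E4 male median was 0.00023, and without ND female 6 the APP/E4 female median was -0.00069. The highest values with 1 library left out were 0.17 in APP/E4 males, without HFD male 4, and 0.079 in APP/E4 females, without ND female 5. With a term for length balance, described further on, the Kmt2 median was -0.013 in APP/E3 males and 0.026 in APP/E4 males, where the Setd median was then 0.053. Kmt2a, a founding H3K4 methyltransferase needed in neural progenitors and for memory, had the lowest p of the members in APP/E3 females and in the average. In APP/E3 females it ran from 117 over a median of 141 to 174 CPM on ND and from 151 over 187 to 249 CPM on HFD. The ranges overlapped, with 3 of the 8 HFD libraries inside the ND range. The log2 difference was 0.44 ± 0.11 (SE), with an adjusted p of 0.342 in edgeR. This difference was 0.31 without the low-Csl libraries, 0.37 with the length balance term and 0.45 with a term for the low-Csl libraries. In APP/E3 males Kmt2a ran from 155 over 163 to 216 CPM on ND and from 166 over 201 to 262 CPM on HFD. The log2 difference there was 0.23 ± 0.12. In APP/E4 males ND ran from 109 over 161 to 181 CPM and the 5 HFD males stood at 151, 163, 186, 202 and 220 CPM. The log2 difference there was 0.25 ± 0.13, and it became 0.16 without ND male 6 and 0.31 without HFD male 4. In APP/E4 females ND and HFD shared most of their range, 151 to 215 and 152 to 237 CPM, with 0.075 ± 0.115. Averaged over the 4, the log2 difference of Kmt2a was 0.25 ± 0.06 with an adjusted p of 0.27.

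Kmt2c and Kmt2d, the paired enhancer H3K4 monomethyltransferases, are close relatives. Kmt2c had log2 differences of 0.29 ± 0.125 in APP/E3 males and 0.32 ± 0.11 in APP/E3 females. In those females it ran from 60.5 over 82.6 to 86.3 CPM on ND and from 78.6 over 102 to 117 CPM on HFD. Kmt2d had 0.03 ± 0.13 in APP/E3 males and 0.29 ± 0.11 in APP/E3 females, and 0.20 ± 0.12 in APP/E4 females, where Kmt2c had 0.039 ± 0.116. None of these passed the adjusted threshold. Kmt2e, a SET-domain protein not known as an active H3K4 writer, had 0.15 ± 0.09 and 0.13 ± 0.08 in APP/E3 males and females. Kmt2b stayed between -0.0096 ± 0.0584 and 0.076 ± 0.065 in the 4 comparisons.

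**Figure D4:**
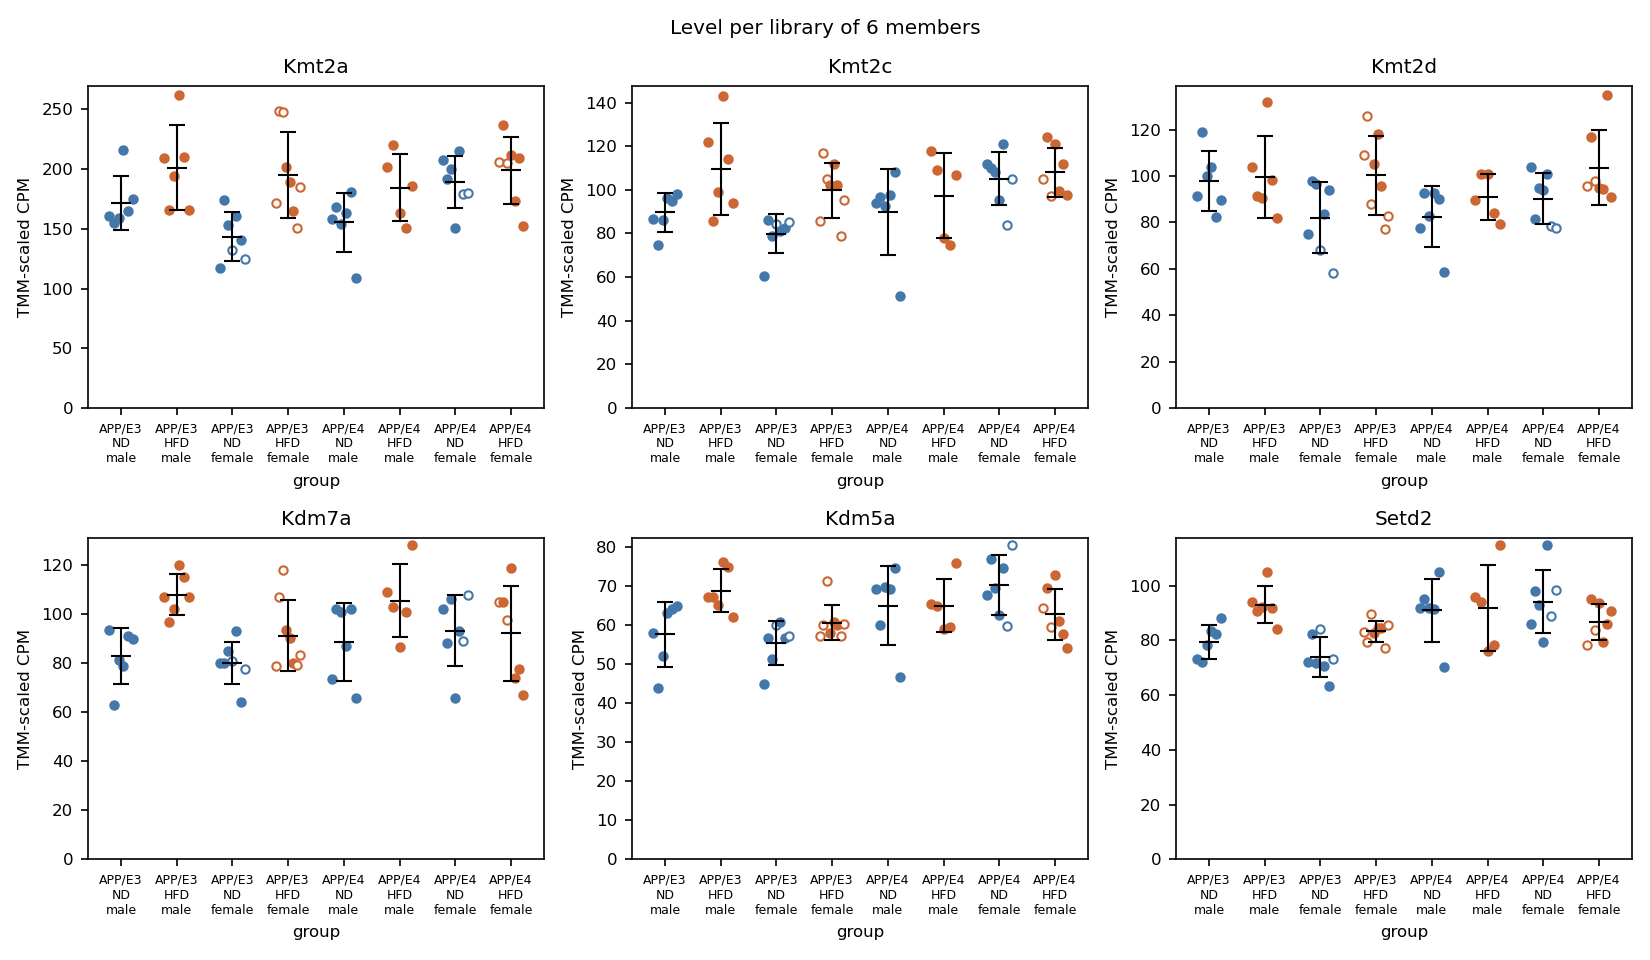
TMM-scaled CPM of Kmt2a, Kmt2c, Kmt2d, Kdm7a, Kdm5a and Setd2 in each library by group, from 0, with group mean and SD in black. Blue is ND, orange HFD, hollow low-Csl. Kdm7a separates the diets in APP/E3 males, at 63 to 93.5 against 96.8 to 120 CPM. Setd2 centres lower in APP/E3 ND mice than in APP/E4 ND mice of the same sex, with overlapping ranges.

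The Setd family holds writers of several marks. Its median diet difference was 0.0079 in APP/E3 males, 0.044 in APP/E3 females, 0.068 in APP/E4 males and -0.00029 in APP/E4 females. Setd2, which trimethylates H3K36 in transcribed gene bodies, had the lowest p of the family in the interaction of diet and line. In APP/E3 it ran from 72.2 over 80.3 to 88.1 CPM on ND and from 84 over 92.1 to 105 CPM on HFD in males, and from 63.4 over 72.1 to 84.3 against 77.1 over 83.8 to 89.6 CPM in females. The log2 differences were 0.22 ± 0.08 and 0.17 ± 0.075, against 0.017 ± 0.087 in APP/E4 males and -0.12 ± 0.08 in APP/E4 females. Setd7 reached 0.18 ± 0.09 in APP/E3 males and 0.15 ± 0.10 in APP/E4 males, and -0.058 ± 0.082 in APP/E3 females. The heterochromatin writer Setdb1 lay between 0.063 ± 0.064 and 0.115 ± 0.062 in the 4 comparisons. The H3K4 writers Setd1a and Setd1b and the intellectual disability gene Setd5 stayed within 0.11 of 0 in every comparison. Setd4, at its low level, had 0.25 ± 0.15 in APP/E4 females.

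Among the erasers, the Kdm median was 0.13 in APP/E3 males and 0.091 in APP/E3 females, each with 14 of 15 genes above 0 (in males 0.082 without HFD male 4 and 0.023 with the length balance term), and 0.0070 and -0.047 in APP/E4 males and females. Kdm7a, a demethylase of the repressive H3K9 and H3K27 marks, ran from 63 over 85.5 to 93.5 CPM on ND and from 96.8 over 107 to 120 CPM on HFD in APP/E3 males. The 2 groups did not overlap, and the log2 difference was 0.38 ± 0.125 with an adjusted p of 0.279 in edgeR. With the length balance term it was 0.14. In APP/E4 males the ND range was 65.8 to 102 CPM and the HFD values were 86.6, 101, 103, 109 and 128 CPM, a log2 difference of 0.26 ± 0.13. In APP/E3 and APP/E4 females it was 0.19 ± 0.11 and -0.014 ± 0.116.

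The H3K4 demethylases Kdm5a and Kdm5b and the CpG-binding H3K36 demethylase Kdm2a also had values above 0 in APP/E3 males. Kdm5b ran from 74.7 over 80.8 to 85.8 CPM on ND and from 84.9 over 93.1 to 102 CPM on HFD, a log2 difference of 0.21 ± 0.07. Kdm5a ran from 43.9 over 60.6 to 65 against 62.2 over 67.2 to 76.2 CPM, with 0.25 ± 0.09. Kdm2a ran from 79.4 over 106 to 115 against 109 over 120 to 127 CPM, with 0.19 ± 0.07. The groups overlapped at their edges for all 3, and the adjusted p was 0.279 for Kdm5b and Kdm2a and 0.286 for Kdm5a in edgeR. With the length balance term the log2 differences were 0.14 for Kdm5b, 0.022 for Kdm5a and 0.074 for Kdm2a, and that of Kdm2a was 0.12 without ND male 2. In APP/E4 females Kdm5a lay the other way, from 59.8 over 69.5 to 80.6 CPM on ND and 54.1 over 61.1 to 72.8 CPM on HFD, with -0.16 ± 0.09. The lysine demethylase Kdm1a and Kdm4b stayed within 0.075 of 0 throughout. Kdm6b had 0.27 ± 0.19 in APP/E3 males, a value with a wide error. The H3K9 demethylases Kdm3a, Kdm3b and Kdm4a had 0.15 ± 0.09, 0.104 ± 0.061 and 0.113 ± 0.060 in APP/E3 males, and -0.060 ± 0.086, 0.021 ± 0.057 and -0.069 ± 0.056 in APP/E4 females. Kdm8, a weakly expressed JmjC-domain protein, had -0.32 ± 0.15 in APP/E4 males, a p below all members but Smarcb1 there. Kdm1b, Kdm2b and Kdm4c lay between -0.129 and 0.129 in the 4 comparisons. Kdm4d, the gene of lowest count, had 0.31 ± 0.26 and 0.34 ± 0.28 in APP/E3 and APP/E4 males and 0.15 ± 0.24 and -0.20 ± 0.26 in the females.

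The remodelers can be ordered by role. Of the 6 Smarc ATPases the median was 0.10 in both sexes of APP/E3. The 7 BAF subunits that are not ATPases had -0.028 in males and -0.016 in females. In APP/E4 the ATPases had -0.0031 and 0.022 and the other subunits -0.079 and 0.040 in males and females. The ATPase genes are also longer, at 41 to 173 kb of genomic length, against 9.79 to 33.6 kb for the other subunits except Smarcc1 at 122 kb. Role and genomic length thus largely go together. Spliced lengths overlap, at 5.73 to 14.3 kb for the ATPases and 3.59 to 7.93 kb for the other subunits. The part of role and of length was not tested. Smarcad1, an ATPase linked to heterochromatin upkeep, ran from 27.4 over 29.7 to 31.8 CPM on ND and from 31.9 over 33.9 to 37.2 CPM on HFD in APP/E3 males. These ranges meet without overlapping, with a log2 difference of 0.21 ± 0.08 that became 0.13 with the length balance term. Smarcb1, a BAF core subunit, was below 0 in all 4 comparisons, between -0.17 ± 0.08 in APP/E4 males and -0.05 ± 0.07 in APP/E3 females, and averaged -0.097 ± 0.036 with an adjusted p of 0.393. In APP/E4 males it ran from 59.6 over 60 to 80.9 CPM on ND, and the HFD values were 50, 55.8, 57.4, 58.7 and 61.3 CPM. The 80.9 CPM was ND male 6, without which the difference was -0.085. Of the alternative BAF ATPases, Smarca2 had 0.22 ± 0.11 and Smarca4 -0.012 ± 0.051 in APP/E4 males. The ISWI ATPase Smarca1, on the X chromosome, had -0.20 ± 0.10 in APP/E4 females, where ND ran from 28 over 37.4 to 47.7 CPM and HFD from 30.5 over 34.7 to 39.3 CPM. Smarcc2, the most abundant BAF core subunit, lay between -0.028 and 0.068 in the 4 comparisons. Its partner Smarcc1 was above 0 in all 4, from 0.012 ± 0.059 in APP/E4 females to 0.113 ± 0.057 in APP/E3 females. The neuronal BAF subunit Smarcd3 had -0.20 ± 0.12 in APP/E4 males and 0.042 ± 0.108 in APP/E4 females. The ISWI ATPase Smarca5 lay above 0 in all 4, from 0.028 ± 0.083 in APP/E4 females to 0.122 ± 0.081 in APP/E3 females.

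The Chd family had medians of 0.13 and 0.11 in APP/E3 males and females, each with 10 of 11 genes above 0, and 0.012 and -0.039 in APP/E4 males and females. With the length balance term the APP/E3 medians were -0.0047 and 0.067. Chd8, an autism gene that binds many active promoters, ran in APP/E3 females from 83.8 over 98 to 104 CPM on ND and from 99.5 over 109 to 118 CPM on HFD. Its log2 difference was 0.17 ± 0.06 there, 0.13 ± 0.06 in APP/E3 males, 0.095 ± 0.066 in APP/E4 males and -0.074 ± 0.058 in APP/E4 females. Chd1, which travels with elongating polymerase, had 0.28 ± 0.11 in APP/E3 females, where ND female 4 stood at 12 CPM against an ND median of 24.9 CPM. Without that library the value was 0.16. Chd9 and Chd2 had 0.23 ± 0.10 and 0.18 ± 0.08 in APP/E3 males. The NuRD ATPases Chd4, Chd5 and Chd3 had 0.12 ± 0.06, 0.076 ± 0.080 and 0.026 ± 0.103 in APP/E3 males. Chd7, the gene of CHARGE syndrome, had 0.30 ± 0.16 there at a mean level of 14.8 CPM.

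The difference between the lines in their diet response was tested directly. No member was called for the interaction of diet with line, averaged over sex or within males or females, nor for the interaction of diet with sex, averaged or within APP/E3 or APP/E4, and 0% of all genes were called in each of these 6 tests. In the averaged interaction 46 of 56 members lay below 0, meaning a lower HFD effect in APP/E4, with a median of -0.081 against 0.010 over all genes. All 15 Kdm genes and 10 of 11 Chd genes were among those below 0. At an unadjusted p under 0.05 in edgeR 9 members (16.1%) lay below 0, against 4.5% of all genes, and 0 above, against 5.47%. The lowest p values were those of Setd2 at -0.25 ± 0.08 and Kdm5a at -0.27 ± 0.09, each with an adjusted p of 0.451. With the length balance term, described further on, the members' median was -0.052 averaged, -0.019 in males and -0.076 in females. Without it these medians were -0.081, -0.067 and -0.093. In APP/E3 males this term and the diet cannot be told apart. Other long genes also had a median below 0 in the averaged interaction without the term. Those of the longest tercile of spliced length, also described further on, had -0.048, against -0.11 for the 37 members there. For the interaction with sex the averaged median was -0.018, with 36 of 56 below 0. The effects in the 2 lines were therefore not shown to differ for any single member.

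Averaged over diet and sex, Setd2 was the only member called between the lines. It was higher in APP/E4 by 0.14 ± 0.04 on the log2 scale, with an adjusted p of 0.0195 in edgeR. On ND the APP/E4 mice ran from 70.2 over 91.9 to 105 CPM in males and from 79.3 over 92.9 to 115 CPM in females, with medians above the APP/E3 medians of 80.3 and 72.1 CPM. On HFD the 5 APP/E4 males stood at 76.1, 78.2, 94, 96 and 115 CPM and the females ran from 78.2 over 85.9 to 95 CPM, near the APP/E3 HFD medians of 92.1 and 83.8 CPM. The medians of the lines were thus farther apart on ND than on HFD, every pair of groups overlapped, and the interaction with diet was not called. The count of 1 in 56 is 1.79%, against 6.79% of all genes called. Leaving out APP/E4 HFD male 5 moved the adjusted p of Setd2 to 0.0519, and leaving out APP/E4 ND male 6 raised the members called to 3. Setd5 was called as well, at 0.098 with an adjusted p of 0.0465, when a term for the low-Csl libraries was added. Between the sexes 0 members were called, against 4.42% of all genes, or 671. That background was 18 genes with a term for whether the title carries a sex letter, and 431 to 1061 when 1 library was left out. At an unadjusted p under 0.05 in edgeR 7 members (12.5%) were lower in females, against 8.04% of all genes, and 0 higher, against 10.8%. With the low-Csl term Smarca5 was called lower in females, at -0.17 with an adjusted p of 0.0149.

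The partners of these enzymes, from lists fixed for this purpose, were not called in any diet comparison. In APP/E3 males the median was 0.064 for 15 COMPASS partners such as Wdr5 and Men1, 0.077 for 26 other histone methyltransferases, 0.079 for 26 acetyltransferases and readers, 0.149 for 10 ISWI partners and 0.119 for 18 DNA methylation enzymes and readers. It was 0.019 for 20 BAF and PBAF partners, 0.012 for 13 NuRD and ADNP partners and 0.057 for 16 other demethylases and their partners, and 0.024 for 21 INO80, SRCAP and TIP60 remodelers. The 21 deacetylase genes lay the other way, at -0.098 with 4 of 21 above 0. In APP/E4 females the deacetylases had 0.108 with 16 of 21 above 0, and the acetyltransferases and readers -0.024 with 7 of 26 above 0. The deacetylases had -0.017 in APP/E3 females and 0.027 in APP/E4 males, and the acetyltransferases and readers 0.068 and -0.0032. Differences between these lists were not tested.

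Between the lines, partner genes of several lists were called in edgeR, where 6.79% of all genes were called. The lists held 10 to 26 genes each, and whether their share of calls differed from that of all genes was not tested. Brd2, an acetyl-lysine reader, was lower in APP/E4 at -0.12 ± 0.02 with an adjusted p of 0.000215, and the mitochondrial deacetylase Sirt3 at -0.15 ± 0.04 with 0.00352. Men1, which tethers Kmt2a and Kmt2b to promoters, was lower at -0.10 ± 0.03 with 0.012, and Vps72 of SRCAP at -0.18 ± 0.05. The BAF subunits Ss18 and Phf10 were higher at 0.13 ± 0.04 and 0.12 ± 0.04, as was the heterochromatin protein Cbx5 at 0.12 ± 0.03. Between the sexes 6 partners were called, where 4.42% of all genes were. Among the 6 were the Y-linked demethylase Uty and, lower in females, the acetyltransferase Crebbp at -0.19 ± 0.055 and the BAF subunit Arid1b at -0.12 ± 0.04.

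The members are long genes, and diet medians over the whole table differed by transcript length. Genes were split into terciles, 3 equal parts from shortest to longest. Their median spliced length was 7.97 kb against 4.55 kb over all tested genes, and 37 of the 54 with a length fell in the longest tercile. They were also abundant, with a median of 68.2 against 21.4 CPM. In APP/E3 males the other genes of the longest tercile had a median diet difference of 0.084 and those of the shortest tercile -0.10. The 37 long members had 0.13 there and the 14 of the middle tercile 0.0071. In APP/E3 females the other long genes had 0.021 and the 37 long members 0.11, while the shortest tercile of other genes had -0.023. In APP/E4 males the 2 values for long genes were 0.029 and 0.064, and in APP/E4 females -0.012 and -0.015. By genomic length, 30 members of the longest tercile had 0.15 in APP/E3 males and 0.10 in APP/E3 females, against 0.080 and 0.020 for other genes. The same members had 0.021 against 0.026 in APP/E4 males, the reverse of the order by spliced length, and in APP/E4 females -0.021 against -0.022.

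**Figure D5:**
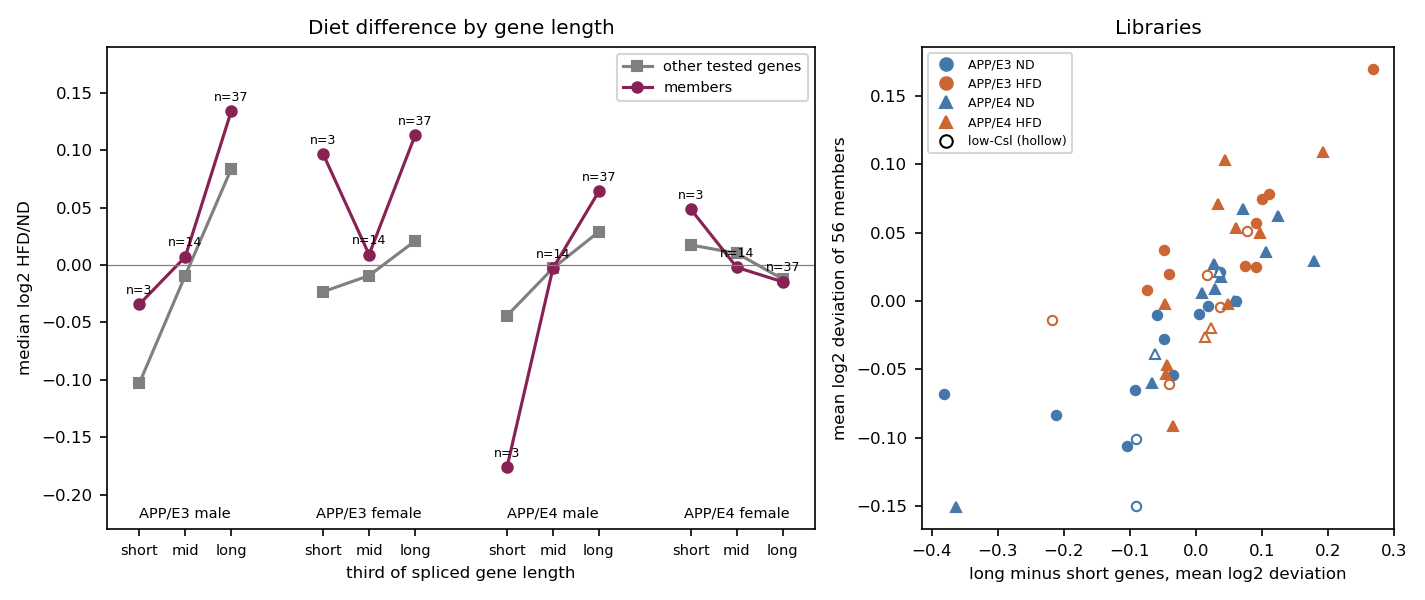
Left, median log2 difference of HFD against ND by tercile of spliced gene length for members and other tested genes in the 4 combinations of line and sex, with the number of members at each point. Right, mean log2 deviation of the members against the mean log2 deviation of the longest minus the shortest tercile of other genes, 1 point per library, circles APP/E3, triangles APP/E4, hollow low-Csl. The libraries rise along a diagonal, with r = 0.816 over the 41 libraries of the larger read class.

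A length balance was computed for each library as the mean log2 deviation of the longest tercile of genes minus that of the shortest, members left out. Over the 41 libraries of the larger read class the members' mean deviation went with it, with Pearson's r = 0.816 and Spearman's rho = 0.815. Without the 2 libraries farthest from the median r was 0.818. In the 11 low-Csl libraries r was 0.536 and rho 0.743, and r was 0.914 without the 2 farthest. Against the mean deviation of 47 short mRNAs of oxidative phosphorylation r was -0.684 and rho -0.563 in the 41 libraries, and -0.41 and -0.409 in the 11. These values are over libraries that share the same scaling and describe the members without a test. The lowest length balance, -0.382, belonged to APP/E3 ND male 2, followed by -0.363 in APP/E4 ND male 6, and both are controls of a diet comparison in males.

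With the length balance of each library as an added term, the median diet difference of the members in APP/E3 males was 0.016 in place of 0.092, and 0 members in place of 12 were higher at an unadjusted p under 0.05 in edgeR. In APP/E3 females the median was 0.065 in place of 0.088, and 8 members in place of 10 were higher. The Kmt2 median moved from 0.15 to -0.013 in APP/E3 males and from 0.29 to 0.23 in APP/E3 females. In APP/E3 males the length balance itself ran from -0.382 to 0.0605 on ND and from 0.0748 to 0.268 on HFD. These ranges do not overlap, so the added term and the diet cannot be told apart in those males. Leaving out APP/E3 ND male 2 alone left 4 members higher at that threshold in APP/E3 males. Among the 41 libraries of the larger read class alone, which keep 3 of 8 APP/E3 HFD females, the female median was 0.058 with 4 higher. The short oxidative phosphorylation mRNAs had a median of -0.21 in APP/E3 males, with 1 of 47 above 0, and 0.00068 in APP/E3 females. Nuclear-retained RNAs such as Malat1 had -0.23 in APP/E3 males. RNA quality per library is not given in the labels, which name only a minimum, so what sets the length balance was not tested. In bulk tissue fewer cells of a type and less RNA per cell cannot be told apart.

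Markers of other cells differed in some diet comparisons, and their sums varied widely between single libraries. In APP/E3 females 8 blood markers had a median of -3.3, with 3 called lower on HFD. Their sum ran from 4.75 over a median of 7.49 to 324 CPM on ND and from 1.8 over 3.53 to 7.41 CPM on HFD. In the same mice 9 choroid plexus markers had a median of 1.37, and in APP/E4 females 1.76. The median of their sum was 239 CPM on ND and 268 CPM on HFD in APP/E3 females, and 283 and 432 CPM in APP/E4 females. The highest HFD libraries reached 3830 and 1320 CPM. In APP/E4 females all 10 microglia markers lay above 0, with a median of 0.218. In APP/E4 males the 8 olfactory markers all lay below 0, with a median of -1.31, and the 9 striatal markers likewise with -0.55. The part of these cells in the members' differences was not tested.

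The authors' deposited table gives a coefficient and an unadjusted p for its own comparison of diets over all mice. In the authors' deposited table the coefficient of Kmt2a is -0.247, that of Kdm7a -0.186 and that of Kmt2c -0.193. Of the 56 members, 12 have a p under 0.05 in the authors' deposited table, 11 of them with a negative coefficient, against 7.69% of all its genes. The sign was opposite to HFD minus ND here for 93.5% of 15195 genes, and the header does not state a direction.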

How the data were processed

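Messenger RNA from frontal cortex was sequenced in 52 mice, 1 library each. The authors deposited 1 table of unnormalized counts by gene. Per the submitters' processing notes, the build was mm9 and the tools were featureCounts of Subread, edgeR 3.14.0 and limma. Their order, the annotation and the strand setting: not given in the sources used here. The same deposited table holds the authors' log2 coefficients and p-values for diet, used only where named; that the coefficients are on the log2 scale is inferred from the values.

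Counts were analysed with edgeR 4.0.16 in R 4.3.3: filterByExpr over the 8 groups (497 genes removed), TMM, robust quasi-likelihood fit with 1 mean per group, 13 contrasts, Benjamini-Hochberg adjustment over 15195 genes, threshold 0.05. The method was tested on simulated data with planted changes larger than the members' diet differences. That test does not show how often changes of the members' size would be found. DESeq2 1.42.0 and limma 3.58.1 voom were alternatives. Log2 CPM carry a prior count of 2. At these depths 3 counts are 0.0762 to 0.561 CPM, counting error only. Gene lengths (GENCODE vM21) were matched by gene ID for 93.8% of tested genes and used as lengths only. Of 146 within-group pairs, none was a duplicate. Replicate numbers follow deposit order.

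The members and lists were chosen with earlier results of these data known. Named were called members, the 5 with the lowest p in each diet comparison, the highest and lowest of each family by level, and well-known members; of the partner lists, called genes, at most 3 a list, of which 1 is not reported here. Genes with the lowest p in the interactions, the highest and lowest levels per kb and the least and most variable genes were named after their values were seen.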

Additional observations from a re-analysis of the deposited data

Results flagged for a closer look

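Within groups of 5 to 8 libraries, the highest or lowest library stood far from the others, by Dixon's criterion, in 14 of 152 checks over the members' mean, the family means and 13 genes. Chance alone gives this in about 5% of such checks. APP/E4 ND male 6 gave 6 of the 14. Its mean deviation of the members was -0.151, against -3.76e-05 to 0.0677 in the other 5, that of the Kmt2 family -0.621 against -0.0974 to 0.0883, and that of the Chd family -0.297 against 0.00868 to 0.0766. Its Chd8 stood at 83 CPM against 105 to 112 CPM, its Kmt2c at 51.1 against 92.4 to 108 CPM, and its Smarcb1 at 80.9 against 59.6 to 61.2 CPM. The length balance of this library was -0.363, and its part in these values was not tested.

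In APP/E3 HFD male 4 the members' mean deviation was 0.17 against 0.0247 to 0.0781 in the other 5. Kdm2a stood at 79.4 CPM in APP/E3 ND male 2 against 103 to 115 CPM, Kdm8 at 3.16 in APP/E3 ND male 3 against 4.88 to 5.87 CPM, and Kmt2a at 216 in APP/E3 ND male 4 against 155 to 175 CPM. Among females, Kmt2c stood at 60.5 CPM in APP/E3 ND female 1 against 78.9 to 86.3 CPM, and Smarca2 at 421 in APP/E3 ND female 3 against 300 to 321 CPM. Kdm5a stood at 71.2 CPM in APP/E3 HFD female 3 against 57.2 to 60.7 CPM, and Kdm5b at 107 in APP/E4 HFD female 4 against 67.5 to 83.9 CPM.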

How the results depend on the processing

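No member was called in a diet or interaction comparison under any alternative: RLE size factors, DESeq2, limma voom, no filter on low counts, a term for read class (low-Csl or not), the larger read class alone, a term for title style (whether the title carries a sex letter), leaving out the deepest library, a length balance term, or leaving out any library in turn. The length balance term and leave-one-out for other contrasts were chosen after seeing the data. Counts at an unadjusted p under 0.05 moved more, and the cause was not tested. Members higher on HFD in APP/E4 males were 2 with limma voom and 5 with the title style term, and those lower 1 with DESeq2, with the title style term and with the length balance term, and 3 with the read class term and in the larger read class, against 2. In APP/E4 females those lower were 0 with limma voom, in the larger read class and without the deepest library, and 2 with the title style term, against 1. In APP/E3 females those higher were 4 in the larger read class, which holds fewer of these mice, and those lower 2 with the length balance term. Averaged, those higher were 17 with the title style term and 4 with the length balance term, which also gave 0 lower. In APP/E3 males the length balance term gave a median of 0.0161 and 0 higher. Called between the lines were 2 members with the read class term (Setd2, Setd5), 3 in the larger read class (with Smarca1) and 3 with the title style term (with Kdm5a). Called between the sexes was 1, Smarca5, with the read class term and in the larger read class, and the title style term gave a median of 0.0186 there against -0.0407. Leaving out each library in turn gave 4 to 16 higher and 0 to 2 lower in APP/E3 males, 6 to 12 and 0 to 1 in APP/E3 females, 0 to 6 and 0 to 3 in APP/E4 males, and 0 to 1 and 0 to 3 in APP/E4 females. It gave 0 to 3 called between the lines and 0 to 1 between the sexes. The lowest count in APP/E3 males came without ND male 2, in APP/E3 females without HFD female 3, and the called members between lines were 3 without APP/E4 ND male 6 and 0 without APP/E4 HFD male 5. No paired analysis was possible because replicate numbers follow deposit order and pair nothing. Depth limits Kdm4d, Setd4, Smarca5-ps and Kdm8 most, the members under 5 CPM.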
